A study of Mus musculus with 12 samples.

Results

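Reactive Müller glia and astrocyte genes were followed across the retinas of mice with oxygen-induced retinopathy (OIR), a model of retinopathy of prematurity. The 9 genes were Gfap, Vim, Nes, Serpina3n, Lcn2, Cd44, Prss56, Msn and Sox9. Each was found by its symbol in the table of counts, where each had 1 row, and all 9 passed the filter on low counts, out of 36131 genes in the table and 16489 tested. All 12 mice were C57BL/6J wild type and their retinas were taken at postnatal day 18. The 4 RA-PBS mice (animals 1 to 4) stayed in room air and received phosphate-buffered saline. The 4 O2-PBS mice (animals 5 to 8) were kept in 75% O2 from day 7 to day 12, returned to room air and received saline. The 4 O2-IC100 mice (animals 9 to 12) had the same O2 exposure and received IC100, a monoclonal antibody against the inflammasome adaptor ASC, at 10 µg per g of body weight. Injections were intraperitoneal, on days 12, 14 and 16. No room air group received IC100, so the comparison of O2-IC100 with RA-PBS joins both exposures.

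Müller cells are the radial glia that span the retina, and astrocytes lie on its inner surface along the vessels. After injury, ischemia or photoreceptor stress, both become reactive: they build up intermediate filaments, remodel their membrane and cytoskeleton, and secrete acute phase proteins. Cytokines of the interleukin 6 family that signal through STAT3 are a known inducer of this state in the retina. In mouse OIR, the retina is ischemic after the return to room air and gliosis is a known feature of that phase.

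Total counts per retina were 14907143 to 24438082, and levels are given as CPM, counts scaled to a common library size by TMM normalization. Animal 10 (O2-IC100) stood apart. Lens crystallin genes took 56.1% of its counts, against at most 4.27% in any other library, and its summed rod markers stood at 10246 CPM, against at least 35912 CPM elsewhere. Crystallin shares of 1.20% to 4.27% were seen in RA-PBS animals 2, 3 and 4, while every other library was at or under 0.0166%. Summed Y-linked genes were at 223 to 273 CPM in animals 1 to 3, 230 CPM in animal 8 and 283 to 324 CPM in animals 9, 11 and 12, and at 4.04 to 9.85 CPM in the remaining animals. Each result is therefore given with all 12 animals and without animal 10, and the Y-linked split is given beside the comparison it touches. In these whole retinas, fewer cells of a type and less RNA per cell cannot be told apart, and nothing states whether any 2 retinas came from the same litter.

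Across the 9 genes, levels per kilobase of exon placed Vim first in O2-PBS retinas, at 71.7 ± 6.58 CPM per kb (SD, n = 4). Gfap followed at 32.0 ± 9.68 CPM per kb. Serpina3n, Msn and Prss56 came next, at 15.5 ± 8.13, 14.4 ± 2.95 and 12.7 ± 3.85 CPM per kb, and these neighbours did not differ beyond their spread. The same held for Sox9 and Nes, at 6.63 ± 1.90 and 6.18 ± 1.87 CPM per kb, and for Cd44 and Lcn2, the lowest of the 9, at 2.97 ± 1.76 and 2.05 ± 0.911 CPM per kb. In RA-PBS retinas, Vim was again first at 46.8 ± 13.7 CPM per kb, and Lcn2 last at 0.997 ± 0.503 CPM per kb.

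The sequences just upstream of the start site are shown for Nes, Vim, Msn and Prss56, which passed the thresholds in both the O2 and the IC100 comparison without animal 10, and for Gfap, the standard marker of gliosis, which passed in neither. Each is the 250 bases before the annotated start, 5′ to 3′ on the gene's own strand, from RefSeq (GRCm38.p6). The Nes window is chr3:87970843-87971092 on the plus strand, the Vim window chr2:13574061-13574310 on the plus strand, the Msn window chrX:96095795-96096044 on the plus strand, the Prss56 window chr1:87183064-87183313 on the plus strand and the Gfap window chr11:102897201-102897450 on the minus strand. Capitals mark matches to the letters searched.
Nes: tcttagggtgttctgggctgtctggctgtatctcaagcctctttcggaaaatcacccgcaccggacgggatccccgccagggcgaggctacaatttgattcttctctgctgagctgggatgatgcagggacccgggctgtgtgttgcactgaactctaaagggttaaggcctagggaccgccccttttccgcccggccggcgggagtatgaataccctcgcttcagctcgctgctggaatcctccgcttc
Vim: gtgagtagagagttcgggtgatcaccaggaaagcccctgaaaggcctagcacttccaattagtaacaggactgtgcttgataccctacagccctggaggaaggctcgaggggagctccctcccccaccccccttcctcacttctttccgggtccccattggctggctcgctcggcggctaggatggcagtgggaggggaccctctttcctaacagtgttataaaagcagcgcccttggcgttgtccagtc
Msn: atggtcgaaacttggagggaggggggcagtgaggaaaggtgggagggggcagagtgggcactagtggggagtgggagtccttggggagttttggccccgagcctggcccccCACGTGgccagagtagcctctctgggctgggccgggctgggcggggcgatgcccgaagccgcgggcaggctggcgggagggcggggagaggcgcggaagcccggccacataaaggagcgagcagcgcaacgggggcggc
Prss56: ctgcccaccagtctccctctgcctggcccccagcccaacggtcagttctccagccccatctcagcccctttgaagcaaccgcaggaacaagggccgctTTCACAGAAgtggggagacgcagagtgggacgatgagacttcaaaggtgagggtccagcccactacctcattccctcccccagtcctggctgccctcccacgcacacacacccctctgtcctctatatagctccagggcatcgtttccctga
Gfap: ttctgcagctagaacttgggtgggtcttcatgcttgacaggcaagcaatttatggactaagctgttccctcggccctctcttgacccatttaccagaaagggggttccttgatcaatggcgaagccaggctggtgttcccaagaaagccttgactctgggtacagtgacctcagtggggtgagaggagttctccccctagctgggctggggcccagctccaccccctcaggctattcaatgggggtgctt

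In all, 4 sets of letters were searched on both strands: TTCNNNGAA (the STAT motif), TGANTCA (AP-1), AACAAT (SOX) and ACGTG (the core bound by HIF factors). Windows were found for 8 of the 9 genes, all but Sox9. The Prss56 window held the STAT letters, 152 bases upstream of the start. The Msn window held the HIF core on both strands as CACGTG, 138 and 139 bases upstream, and the Cd44 window held it 29 bases upstream. Nes, Gfap, Vim, Serpina3n and Lcn2 held none of the 4. Among 32851 promoter windows of the same length, 7.02% held the STAT letters, 6.75% AP-1, 9.42% SOX and 16.6% the HIF core, so these matches are a description of the windows and nothing more.

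To learn what O2 exposure did to these genes, O2-PBS retinas were compared with RA-PBS retinas. With all 12 animals, 2 of the 9 rose, Nes and Msn, and none fell, where 0.782% of the tested genes rose and 0.0243% fell. A gene was counted where its fold change was at least 1.5, p was under 0.05 and the adjusted p was under 0.1 in edgeR, and calls are those of edgeR where DESeq2 is not named. Without animal 10, 6 of the 9 rose (Vim, Nes, Cd44, Prss56, Msn and Sox9) and none fell, where 4.09% of the tested genes rose and 2.18% fell. An unadjusted p under 0.05 was found for 7 of the 9 and for 3648 of the 16688 tested genes. The paper had already named Vim, Prss56, Msn and Sox9 from this dataset, in pathways induced by O2 and corrected by IC100. The 9 were chosen with such results known, so their counts beside these shares are no independent evidence. DESeq2 counted 3 higher with all animals (2.27% of tested genes) and 7 without animal 10 (4.57%; the same 6 and Lcn2), and none lower, where it called 0.401% and 2.44% of tested genes lower. All 9 genes had a positive log2 fold change in both fits, with a median of 1.06 with all animals and 1.06 without animal 10, where the median over all tested genes was −0.01 in both. In 5 of the 9 (Vim, Nes, Prss56, Msn and Sox9), every O2-PBS animal lay above every RA-PBS animal, a pattern found in 7.81% of all tested genes with 12 animals and 7.8% without animal 10.

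To learn what IC100 did in O2-exposed retinas, O2-IC100 was compared with O2-PBS. With all 12 animals, none of the 9 rose or fell in edgeR, as for the tested genes as a whole, of which 0% rose and 0% fell. Of the 9, 3 had an unadjusted p under 0.05, as did 2784 of the 16489 tested genes. DESeq2 counted 2 as lower, Nes and Prss56, where it called 0.621% of the tested genes lower and 0.188% higher. Without animal 10, Vim, Nes, Prss56 and Msn fell and none rose, where 0.731% of the tested genes fell and 0.216% rose. Of these, Vim, Prss56 and Msn were among the genes that the paper had named from this dataset, so the count is no independent evidence. DESeq2 then counted 6 as lower (also Cd44 and Sox9), with 1.81% of tested genes lower and 0.486% higher. With a term for Y-linked levels and without animal 10, Msn alone was called lower in edgeR, where 0.156% of tested genes were lower. The median log2 fold change of the 9 was −0.76 with all animals and −1.14 without animal 10, against 0.00 for all tested genes in both. Every O2-IC100 animal lay below every O2-PBS animal for 2 of the 9 with 12 animals, where 10.7% of tested genes did so, and for 8 of the 9 without animal 10 (all but Lcn2), where 17.3% did so.

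The comparison of O2-IC100 with RA-PBS measured how far the treated retinas stood from room air. None of the 9 was called in either direction by edgeR, with 0% of tested genes higher and 0% lower with 12 animals, and 0.947% higher and 0.617% lower without animal 10. Of the 9, 4 had an unadjusted p under 0.05 with all animals and 1 (Nes) without animal 10. Among all tested genes, 2183 of 16489 and 2595 of 16688 did so. DESeq2 counted none and 1 (Nes) as higher, with 1.42% and 1.66% of tested genes higher and 0.511% and 1.74% lower. The median log2 fold change of the 9 was 0.71 with 12 animals and 0.25 without animal 10, against 0.02 for all tested genes in both. For Nes, every O2-IC100 animal other than animal 10 lay above every RA-PBS animal, where 5.18% of tested genes did so. These comparisons share groups, so their fold changes are not independent of each other.

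**Figure D1:**
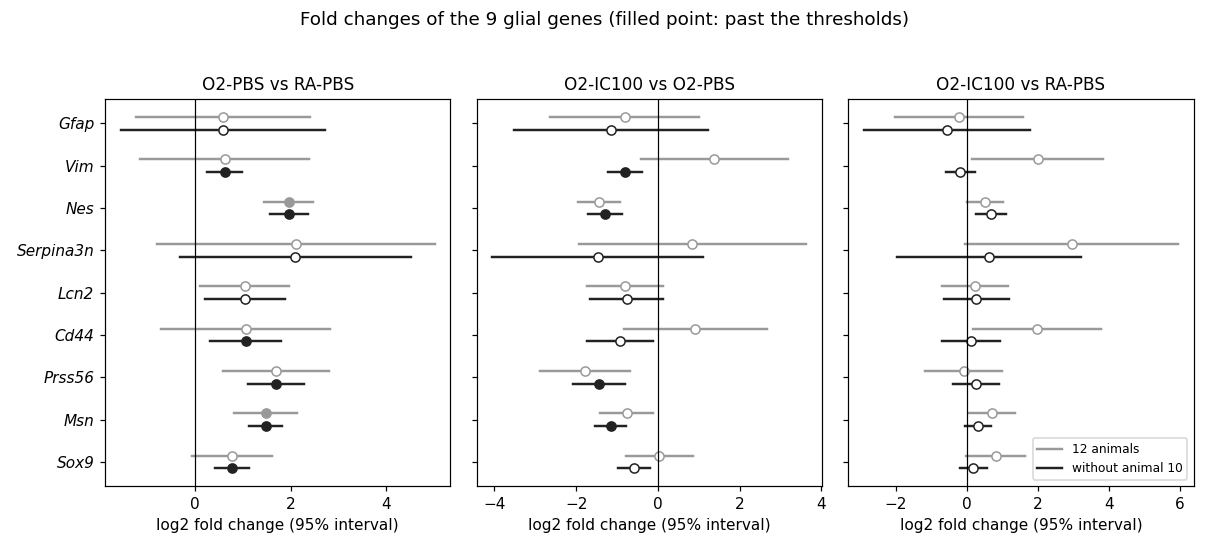
Log2 fold change of each of the 9 genes (points) with its 95% interval (lines) in the 3 comparisons, with all 12 animals (grey) and without animal 10 (black); filled points passed the thresholds. Nes and Msn were past the thresholds in the O2-PBS against RA-PBS comparison in both fits, and the Vim, Serpina3n, Cd44 and Sox9 points of the O2-IC100 against O2-PBS comparison changed sides of 0 when animal 10 was left out.

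Nes (ENSMUSG00000004891) encodes nestin, an intermediate filament protein of neural progenitors that dedifferentiating Müller cells and new vessels also make. It stood at 9.48, 8.79, 12.2 and 10.3 CPM in RA-PBS animals 1 to 4 and at 56.7, 31.0, 31.4 and 39.6 CPM in O2-PBS animals 5 to 8. In O2-IC100 animals 9 to 12 it stood at 16.5, 9.97, 17.3 and 14.4 CPM. The O2-PBS animals were all above both other groups, and the O2-IC100 animals other than animal 10 lay between. With O2, Nes rose by a log2 fold change of 1.96 ± 0.23 (SE; adjusted p = 0.0054) with all animals and 1.96 ± 0.18 (adjusted p = 6.8e-05) without animal 10. With IC100, it was lower by a log2 fold change of −1.44 ± 0.23 (adjusted p = 0.29) with all animals and fell without animal 10 (−1.29 ± 0.19, adjusted p = 0.026). Nes was the only one of the 9 called in the O2 comparison in each of the 12 fits that left out 1 animal.

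Vim (ENSMUSG00000026728) encodes vimentin, the main intermediate filament of Müller cells, which lens fibre cells also make. It was at 213, 138, 292 and 244 CPM in RA-PBS and at 358.5, 306, 373 and 322 CPM in O2-PBS, and the groups did not overlap. In O2-IC100 it was at 174, 2949, 200 and 205 CPM, with animal 10, the lens-rich library, far above the others. The log2 fold change with O2 was 0.62 in both fits, but its SE was 0.81 with all animals (adjusted p = 1.00) and 0.17 without animal 10 (adjusted p = 0.044), where Vim rose. With IC100, it was 1.38 ± 0.82 (adjusted p = 0.38) with all animals, and without animal 10 Vim fell by 0.80 ± 0.19 on the log2 scale (adjusted p = 0.092). The direction of the IC100 comparison for Vim thus rested on animal 10. With a term for Y-linked levels, the value with O2 was −0.11 (adjusted p = 0.94) with all animals and 0.54 (adjusted p = 0.14) without animal 10, so that neither passed.

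Gfap (ENSMUSG00000020932) encodes the filament protein that astrocytes make at rest and Müller cells make once reactive. It was at 20.9, 10.4 and 40.9 CPM in RA-PBS animals 1 to 3, but at 288 CPM in RA-PBS animal 4, the highest value of all 12. It was at 187, 89.1, 140.5 and 124 CPM in O2-PBS and at 44.5, 128, 53.3 and 83.4 CPM in O2-IC100. The O2-PBS animals all stood above the first 3 RA-PBS animals and below the fourth, so the groups overlapped. The log2 fold change with O2 was 0.59 ± 0.83 (SE; adjusted p = 1.00) with all animals and 0.58 ± 0.93 (adjusted p = 0.77) without animal 10. With IC100 it was −0.81 ± 0.83 (adjusted p = 0.60) and −1.14 ± 1.04 (adjusted p = 0.56). Gfap was therefore called in neither comparison in either fit, and 1 room air library decided the value. In the series of fits that left out each animal in turn together with animal 10, the fit without animal 4 gave a log2 fold change of 2.50 with O2 (adjusted p = 0.018). In that RA-PBS animal 4, astrocyte markers summed to 117 CPM, against 47.2 to 78.8 CPM in the other 3 RA-PBS animals, and its Y-linked genes stood at 5.63 CPM. The part of either in the Gfap level was not tested.

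Msn (ENSMUSG00000031207), on the X chromosome, encodes moesin, which ties actin to the plasma membrane in microvilli and is abundant in endothelium and leukocytes as well as in glia. It was at 39.1, 28.3, 37.4 and 26.8 CPM in the RA-PBS animals and at 117, 73.7, 84.1 and 90.0 CPM in the O2-PBS animals, with no overlap. It was at 34.5, 94.9, 43.1 and 43.5 CPM in the O2-IC100 animals, animal 10 being the high one. With O2, Msn rose by 1.47 ± 0.30 (log2, SE; adjusted p = 0.064) with all animals and by 1.47 ± 0.16 (adjusted p = 0.00013) without animal 10. With IC100, the change was −0.76 ± 0.29 (adjusted p = 0.29) with all animals, and Msn fell without animal 10 (−1.16 ± 0.17, adjusted p = 0.026).

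Cd44 (ENSMUSG00000005087) encodes the receptor for hyaluronan and osteopontin, found on reactive glia and on leukocytes. It was at 6.96, 8.55, 15.3 and 7.79 CPM in RA-PBS and at 37.9, 13.2, 15.9 and 13.4 CPM in O2-PBS, where the groups overlapped and animal 5 stood apart from the other 3. In O2-IC100 it was at 10.9, 122, 10.7 and 9.56 CPM, again with animal 10 far above. The log2 fold change with O2 was 1.06 ± 0.80 (SE; adjusted p = 1.00) with all animals, and Cd44 rose by 1.06 ± 0.34 (adjusted p = 0.084) without animal 10, a call that was kept in 3 of the 11 fits that left out a further animal and lost, among others, without animal 5 (0.56, adjusted p = 0.21). Under IC100, the value was 0.92 ± 0.80 (adjusted p = 0.54) with all animals and −0.93 ± 0.37 (adjusted p = 0.22) without animal 10, where DESeq2 called Cd44 lower.

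Serpina3n (ENSMUSG00000021091) encodes a secreted inhibitor of serine proteases of the acute phase response. It was at 0.11, 0.87, 4.61 and 24.1 CPM in RA-PBS, where the lowest value rests on 2 counts, under the floor of 3 counts (0.168 CPM). It was at 50.5, 18.2, 41.8 and 17.3 CPM in O2-PBS and at 6.60, 197, 11.4 and 15.9 CPM in O2-IC100. As for Gfap, RA-PBS animal 4 was the highest of its group and overlapped the O2-PBS values. The log2 fold change with O2 was 2.10 ± 1.32 (SE; adjusted p = 0.95) with all animals and 2.10 ± 1.05 (adjusted p = 0.30) without animal 10, and neither passed. Without animals 4 and 10, Serpina3n rose with O2 (4.11, adjusted p = 0.023). The other genes of its cluster, close in sequence, summed to at most 1.32 CPM in any retina. These levels come from the same assignment of reads, and how many reads were shared was not tested.

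Lcn2 (ENSMUSG00000026822) encodes lipocalin 2, a secreted binder of bacterial siderophores made by reactive astrocytes and by neutrophils. It was at 1.40, 1.55, 3.72 and 3.79 CPM in RA-PBS, 8.14, 3.96, 6.50 and 2.88 CPM in O2-PBS, and 2.72, 2.90, 4.32 and 2.30 CPM in O2-IC100. All 3 groups overlapped. With O2, the log2 fold change was 1.04 ± 0.42 (SE; adjusted p = 0.60) with all animals and 1.04 ± 0.39 (adjusted p = 0.13) without animal 10, where DESeq2 called it higher (adjusted p = 0.067). With IC100 it was −0.81 ± 0.42 (adjusted p = 0.33) and −0.76 ± 0.42 (adjusted p = 0.32). Neutrophil markers summed to at most 1.53 CPM in any RA-PBS or O2-PBS retina and 3.66 CPM in animal 10.

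Prss56 (ENSMUSG00000036480) encodes a secreted serine protease that the retina expresses mainly in Müller cells and that is needed for normal axial growth of the eye. It was at 6.84, 7.68, 9.71 and 10.0 CPM in RA-PBS and at 38.9, 22.99, 29.2 and 19.8 CPM in O2-PBS, so that the lowest O2-PBS value was above the highest RA-PBS value. In O2-IC100 it was at 15.5, 1.39, 8.88 and 5.93 CPM, all below the O2-PBS animals, and animal 10 was the lowest of all 12. The log2 fold change with O2 was 1.70 ± 0.50 (SE; adjusted p = 0.28) with all animals, and Prss56 rose by 1.69 ± 0.27 (adjusted p = 0.0028) without animal 10. For IC100, the value was −1.79 ± 0.50 (adjusted p = 0.29) with all animals, and Prss56 fell without animal 10 (−1.44 ± 0.30, adjusted p = 0.064).

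Sox9 (ENSMUSG00000000567) encodes a transcription factor that Müller cells keep in their nuclei through adult life. It was at 18.6, 14.7, 16.9 and 14.2 CPM in RA-PBS, 39.0, 21.7, 23.4 and 25.5 CPM in O2-PBS, and 17.5, 59.1, 18.7 and 17.99 CPM in O2-IC100. O2-PBS lay above RA-PBS without overlap, and the O2-IC100 animals other than animal 10 lay within 17.5 to 18.7 CPM, below all O2-PBS animals. With O2, the log2 fold change was 0.77 ± 0.38 (SE; adjusted p = 0.77) with all animals, and Sox9 rose by 0.77 ± 0.16 (adjusted p = 0.012) without animal 10. The change with IC100 was 0.04 ± 0.38 (adjusted p = 0.96) with all animals and −0.58 ± 0.18 (adjusted p = 0.15) without animal 10, which did not pass in edgeR, while DESeq2 called it lower (−0.60, adjusted p = 0.039).

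**Figure D2:**
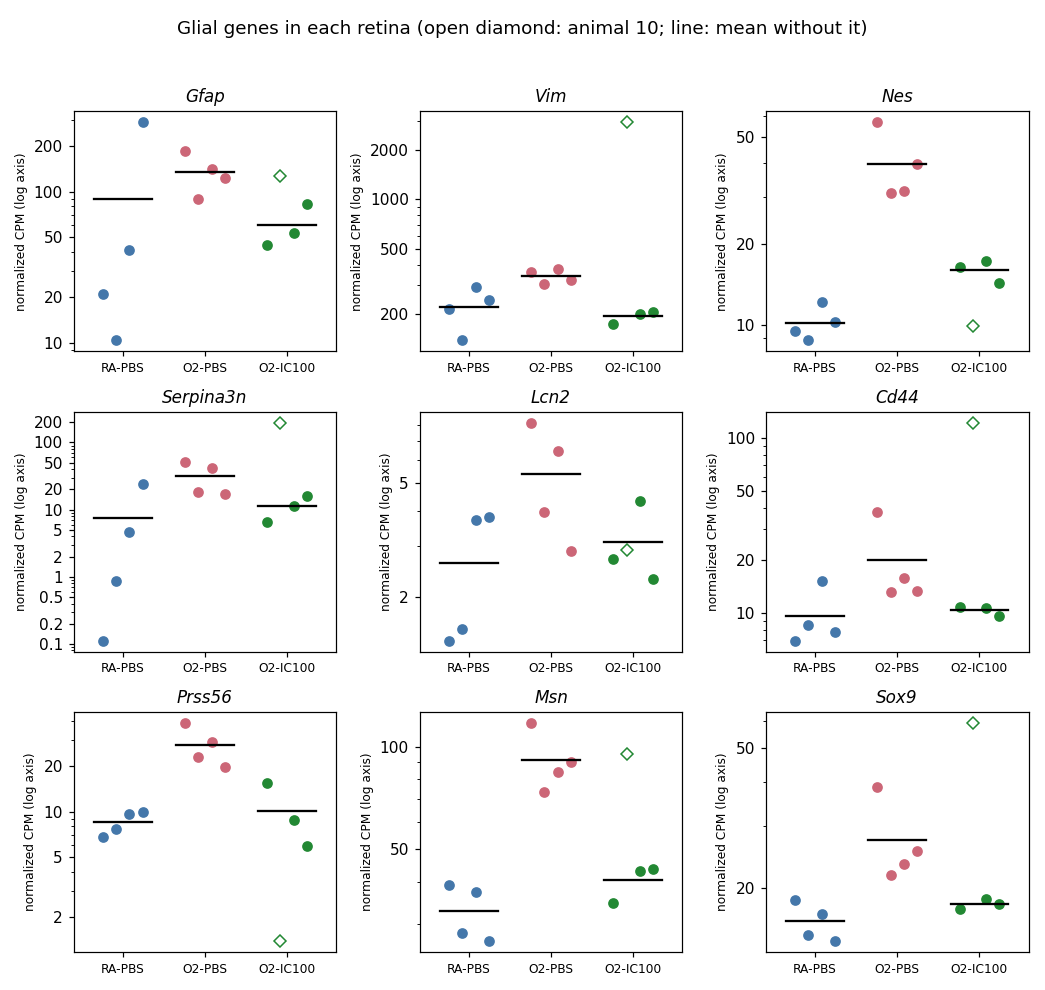
Normalized CPM (log axis) of each of the 9 genes in each retina, by group, with the animals of a group from left to right in order of their number; the open diamond is animal 10 and the line is the group mean without it. The O2-PBS points of Nes, Msn and Prss56 sit above all RA-PBS points, RA-PBS animal 4 is the highest Gfap value, and animal 10 is the highest Vim, Serpina3n, Cd44 and Sox9 value.

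Within groups, the same animals were often highest or lowest across the 9 genes, and how often this held for other genes was not counted. Animal 5 was the highest O2-PBS retina for 8 of the 9, all but Vim, and animal 6 the lowest for 6. Animal 10 was the highest O2-IC100 retina for 6 and the lowest for 2. Animal 4 was the highest RA-PBS retina for 4 of the 9, and animal 3 for 3. In the 11 fits that left out a further animal beside animal 10, Nes, Prss56 and Msn were called higher with O2 in all 11, Sox9 in 10 and Vim in 8. For IC100, Nes and Msn were called lower in 8 of these fits, Prss56 in 6 and Vim in 4. Without animals 5 and 10, Nes, Prss56 and Msn rose with O2, and Nes and Msn fell with IC100. When any of animals 9, 11 and 12 was left out together with animal 10, no gene of the 9 was called lower with IC100 in edgeR. In those 3 fits of 2 O2-IC100 animals, 5 or 6 of the 9 had an unadjusted p under 0.05. The share of all tested genes at that p was not counted there, and DESeq2 was not run on them.

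**Figure D3:**
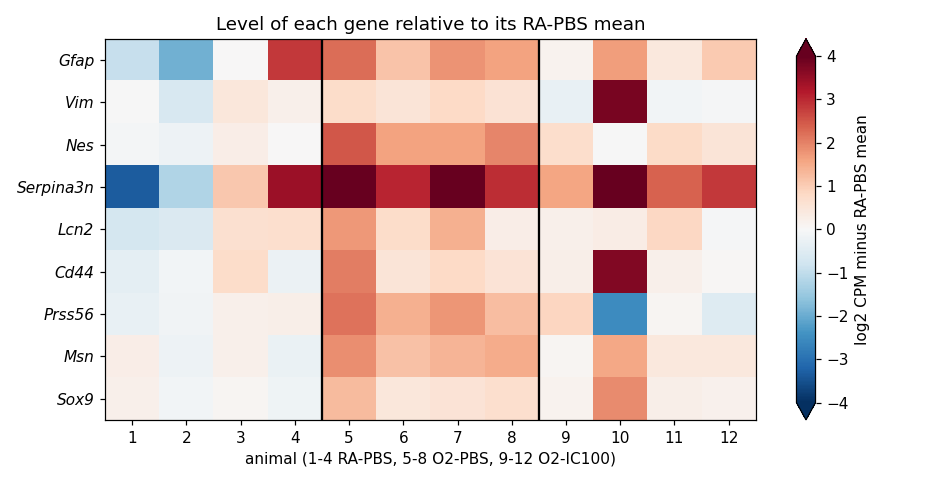
Log2 CPM of each gene (rows) in each animal (columns) minus its RA-PBS mean, with red above and blue below that mean and colours saturated at 4 log2 units; black lines part the groups. Column 5 is the reddest O2-PBS column for 7 of the 9 genes, columns 5 and 7 both reach the end of the colour scale for Serpina3n, and column 10 holds the reddest Vim and Cd44 cells and the bluest Prss56 cell.

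Y-linked levels parted the groups almost as the treatment did. Of the O2-PBS retinas, only animal 8 had high Y-linked levels, and all O2-IC100 retinas but animal 10 did. Among the retinas with high Y-linked levels, Nes was at 8.79 to 12.2 CPM in the 3 RA-PBS animals, 39.6 CPM in animal 8 and 14.4 to 17.3 CPM in O2-IC100. Msn was at 28.3 to 39.1, 90.0 and 34.5 to 43.5 CPM in the same order, and Vim at 138 to 292, 322 and 174 to 205 CPM. Prss56 followed the same order, at 6.84 to 9.71, 19.8 and 5.93 to 15.5 CPM. For Gfap the values were 10.4 to 40.9, 124 and 44.5 to 83.4 CPM. Animal 8 was thus above both other groups in these 5, and also for Sox9 (25.5 CPM against at most 18.7 CPM) and Serpina3n (17.3 against at most 15.9 CPM). For Cd44 (13.4 CPM) and Lcn2 (2.88 CPM) it was within the range of the others. In an edgeR fit of these 7 retinas alone, where animal 8 was the lone O2-PBS sample and was assumed to vary like the others, Nes (1.96, adjusted p = 0.014) and Msn (1.37, adjusted p = 0.029) were higher than in RA-PBS, where 0.515% of tested genes were higher. None of the 9 was called with IC100 in that fit, where 0.0229% of tested genes were lower, and 5 of the 9 had an unadjusted p under 0.05. The share of all tested genes at that unadjusted p was not counted, and DESeq2 was not run on this fit. Nes was called higher in the 3 O2-IC100 than in the 3 RA-PBS animals (0.66, adjusted p = 0.054), where 1.29% of tested genes were higher. The retinas with low Y-linked levels, which hold 1 RA-PBS animal and only animal 10 of O2-IC100, were not fitted. With a term for Y-linked levels and without animal 10, Msn was called lower with IC100 (−1.29, adjusted p = 0.093), and Nes was not (−1.26, adjusted p = 0.10), nor Vim (−0.66, adjusted p = 0.15) nor Prss56 (−1.03, adjusted p = 0.14). In that fit Gfap was at 0.23 with IC100 (adjusted p = 0.89), so its sign changed, and Nes, Prss56, Msn and Sox9 were called higher with O2, where 3.18% of tested genes were higher.

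Of the signals known to bring on gliosis, 13 ligands, receptors and mediators were listed and 11 were tested. With O2, 3 rose with all animals (Edn2, Fgf2 and Stat3) and 6 without animal 10 (also Lif, Osmr and Socs3), and none fell. Over all tested genes, 0.782% rose with all animals and 4.09% without animal 10. This list and those below were chosen with earlier results of these data known, so their counts are no independent evidence. All 11 had a positive log2 fold change, with a median of 1.17. With IC100 none was called with all animals in edgeR, where 4 had an unadjusted p under 0.05, as did 2784 of 16489 tested genes. DESeq2 then called 3 lower, where it called 0.621% of tested genes lower. Without animal 10, Edn2, Fgf2 and Stat3 fell (median of the 11, −1.01), and DESeq2 called 5 lower (also Il6st and Socs3). Of all tested genes, 0.731% fell in edgeR and 1.81% in DESeq2. Edn2 and Fgf2 were still higher than in RA-PBS without animal 10, where 0.947% of tested genes were higher.

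Edn2, an endothelin made by stressed photoreceptors that acts on Müller cells, was at 0.617, 0.290, 1.94 and 0.790 CPM in RA-PBS and at 25.4, 27.9, 40.6 and 29.0 CPM in O2-PBS. It was at 7.72, 10.6, 7.97 and 10.3 CPM in O2-IC100, between the other groups with no overlap, animal 10 included. The log2 fold change with O2 was 5.09 ± 0.35 (SE; adjusted p = 1.1e-05) and with IC100 −1.81 ± 0.31 (adjusted p = 0.034), both without animal 10. Fgf2, a growth factor of photoreceptor and Müller cell survival, was at 16.01 to 28.6 CPM in RA-PBS, 82.6 to 121 CPM in O2-PBS and 46.7 to 57.7 CPM in O2-IC100. Its log2 fold change was 2.38 ± 0.17 with O2 (adjusted p = 1.1e-05) and −1.03 ± 0.18 with IC100 (adjusted p = 0.034) without animal 10. These genes kept their order of groups in every animal, animal 10 included.

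Stat3, the transcription factor downstream of this cytokine family, was at 56.9 to 80.5 CPM in RA-PBS and at 243, 124, 126 and 125 CPM in O2-PBS. It was at 71.9, 114, 77.2 and 76.4 CPM in O2-IC100. It rose by 1.17 ± 0.20 with O2 (adjusted p = 0.0032) and fell with IC100 (−1.02 ± 0.21, adjusted p = 0.066) without animal 10. Animal 5 was the highest O2-PBS retina for Stat3 and likewise for Lif, the leukemia inhibitory factor (9.11 CPM against 0.938 to 1.55 CPM in the other 3), Osmr, the oncostatin M receptor (48.5 against 15.5 to 19.1 CPM), and Socs3, the feedback inhibitor (26.2 against 8.71 to 11.9 CPM). For Edn2, animal 5 was the lowest of the 4. Il6st, the shared receptor subunit gp130, and Lifr, its partner for leukemia inhibitory factor, had high levels (136 and 115 CPM on average in O2-PBS). Neither passed in edgeR, with log2 fold changes of 0.41 and 0.20 with O2. DESeq2 called Il6st lower with IC100 without animal 10 (−0.61, adjusted p = 0.013).

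**Figure D4:**
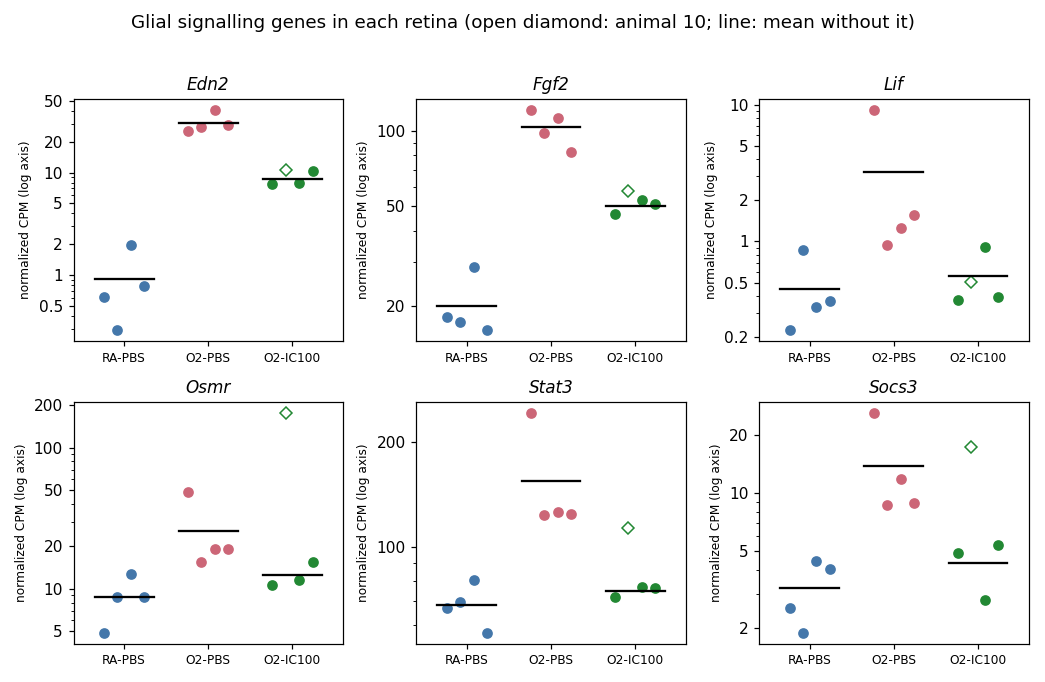
Normalized CPM (log axis) of 6 glial signalling genes in each retina, by group, with the animals of a group from left to right in order of their number; the open diamond is animal 10 and the line is the group mean without it. Edn2 and Fgf2 lie in 3 separate bands, and the leftmost O2-PBS point, animal 5, is the highest of its group for Fgf2, Lif, Osmr, Stat3 and Socs3.

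Lists that have been used for reactive astrocytes moved less evenly. Of 7 tested genes of the pan-reactive list, without animal 10, Osmr and S1pr3 rose with O2 and Hspb1 fell, where 4.09% of tested genes rose and 2.18% fell. None was called with all animals in edgeR, where 2 had an unadjusted p under 0.05, as did 1174 of 16489 tested genes. DESeq2 then called 1 higher, where it called 2.27% of tested genes higher. S1pr3, a receptor for sphingosine 1-phosphate, rose by 0.79 ± 0.16 (log2, SE; adjusted p = 0.011). Hspb1, a small heat shock protein, was at 2.52, 28.0, 97.0 and 49.0 CPM in RA-PBS and at 4.30 to 5.67 CPM in O2-PBS, and at 4396 CPM in animal 10, so its high values were in the crystallin-rich libraries. Cp, which encodes ceruloplasmin, was among the highest of this list, at 156 to 211 CPM in O2-PBS against 90.9 to 145 CPM in RA-PBS. None of the 7 was called with IC100 in edgeR or DESeq2, with medians of −0.27 with all animals and −0.95 without animal 10. An unadjusted p under 0.05 was found for 2 with all animals and 3 without animal 10. Among all tested genes, 2784 of 16489 and 3201 of 16688 did so.

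Of 11 tested genes of the list called A1, H2-D1 rose with all animals, and H2-D1, Ggta1, H2-T23 and Serping1 rose without animal 10, and none fell. Of all tested genes, 0.782% rose with all animals and 4.09% without animal 10. H2-D1, a class I histocompatibility gene, was at 22.9 to 34.3 CPM in RA-PBS and 46.8 to 57.0 CPM in O2-PBS (log2 fold change 0.81 ± 0.15, adjusted p = 0.042 with all animals). Its reads could be shared with other class I genes. Of 10 tested genes of the list called A2, Emp1, Tm4sf1 and Cd109 rose without animal 10, and of these edgeR called Emp1 with all animals and DESeq2 Emp1 and Cd109. Emp1, an epithelial membrane protein, was at 1.74 to 3.83 CPM in RA-PBS and 8.71 to 15.7 CPM in O2-PBS (2.24 ± 0.27, adjusted p = 0.00027 without animal 10). With IC100, none of either list was called in edgeR, where without animal 10 an unadjusted p under 0.05 was found for 1 gene of the A1 and 2 of the A2 list, and DESeq2 called 1 of the A2 list lower. In O2-IC100 without animal 10, edgeR called Ggta1, Emp1 and Tm4sf1 higher than in RA-PBS, and DESeq2 also H2-T23, Psmb8 and Cd109. Of all tested genes, 0.947% were higher there in edgeR and 1.66% in DESeq2. With all animals, edgeR called none of either list in that comparison. DESeq2 called H2-T23, Ggta1, Iigp1, Psmb8 and Emp1 higher, where it called 1.42% of tested genes higher.

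Within the A1 list, the 3 most abundant genes were Amigo2 (62.97 to 73.8 CPM in O2-PBS), H2-D1 and Fkbp5 (26.9 to 29.1 CPM in O2-PBS), and Amigo2 and Fkbp5 passed in no comparison. B3gnt5 and S100a10 of the A2 list were abundant mainly through animal 10, at 412 and 88.4 CPM there, against 3.22 to 4.76 and 14.5 to 17.6 CPM in O2-PBS.

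None of the partners of the filament proteins and of moesin was called in edgeR. Of 7 tested genes, at most 4 had an unadjusted p under 0.05 in any comparison and fit, and DESeq2 called Synm lower with IC100 without animal 10. Their median log2 fold changes were −0.05 for O2 and −0.18 for IC100 without animal 10. Synm, which encodes synemin, the filament partner of vimentin and desmin, was at 56.8 CPM on average in O2-PBS and 44.7 CPM in RA-PBS, a log2 fold change of 0.35 (adjusted p = 0.25). Plec, the linker plectin, and Nf2, the moesin relative merlin, had log2 fold changes of 0.10 and −0.05 with O2. The 2 closest relatives of moesin, named here after their values were seen, were Ezr and Rdx, with −0.17 (95% interval −0.75 to 0.41) and −0.06 (−0.25 to 0.13), against 1.47 (1.13 to 1.81) for Msn.

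Transcription factors and Notch signalling genes that hold Müller cells in their state were listed beside Sox9. Of 11 tested, none was called in any comparison by edgeR or DESeq2 in either fit, with at most 2 at an unadjusted p under 0.05, and the median log2 fold change with O2 was 0.14 without animal 10, against 0.77 for Sox9 itself. Rax, a retinal homeobox gene, was the most abundant, at 148 CPM in O2-PBS and 135 CPM in RA-PBS. Nfix, a factor of gliogenesis, stood at 63.3 and 66.8 CPM. Notch1 had a log2 fold change of 0.48 with O2 (adjusted p = 0.092), under the fold threshold.

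Of 8 tested genes that act with the products of Cd44, Lcn2 and Prss56, Adamts19 rose and Spp1 fell with O2 without animal 10, where 4.09% of tested genes rose and 2.18% fell. None was called with all animals by edgeR (2 with an unadjusted p under 0.05) or DESeq2. Spp1, the gene of osteopontin, a ligand of CD44, was at 12.9, 8.94, 9.44 and 12.1 CPM in RA-PBS and 6.09 to 7.12 CPM in O2-PBS (−0.72 ± 0.15, adjusted p = 0.012). It fell, while its receptor gene Cd44 rose in the same fit. Adamts19, a secreted protease gene, rose by 1.03 ± 0.31 (adjusted p = 0.061). Slc22a17, the receptor of lipocalin 2, was at 171 CPM in O2-PBS and 215.5 CPM in RA-PBS. Lrp2 and Mfrp, the other abundant genes of this list, passed in no comparison in edgeR, while DESeq2 called Mfrp lower with O2 without animal 10 (−0.94, adjusted p = 0.040). Mfrp was at 5.22, 20.8, 26.1 and 16.7 CPM in RA-PBS and 7.07 to 10.8 CPM in O2-PBS. It was at 654 CPM in animal 10, so its high values, like those of Hspb1, were in the crystallin-rich libraries. Pigment epithelium markers summed to 105, 206, 311 and 255 CPM in RA-PBS animals 1 to 4 and to 9224 CPM in animal 10. The part of lens or pigment epithelium in the Mfrp level was not tested.

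The genes by which resting Müller cells do their work had mostly negative fold changes with O2. Of 11 tested, 10 had a negative log2 fold change with O2 (median −0.48 without animal 10). Kcnj10 and Rlbp1 fell without animal 10, where 2.18% of tested genes fell. Kcnj10, the potassium channel Kir4.1, was at 61.2 ± 11.3 CPM in RA-PBS and 39.6 ± 4.22 CPM in O2-PBS (SD, n = 4; −0.63 ± 0.13, adjusted p = 0.0084). Rlbp1, the retinoid carrier CRALBP, was at 425.5 ± 87.2 and 280 ± 29.5 CPM (−0.61 ± 0.13, adjusted p = 0.013). Rlbp1 is also made by the pigment epithelium, whose 10 markers summed to 105 to 311 CPM in RA-PBS, 62.0 to 128 CPM in O2-PBS and 154 to 156 CPM in O2-IC100 without animal 10, with none at 0 in any group. Of these, 6 fell with O2 without animal 10, and their part in the Rlbp1 level was not tested. With IC100, without animal 10, all 11 were positive (median 0.26). Aqp4, the water channel of the Müller end feet, rose (0.66 ± 0.15, adjusted p = 0.082), where 0.216% of tested genes rose. The summed level of the 11 was 3874 to 5196 CPM in RA-PBS, 3010 to 3389 CPM in O2-PBS and 3680 to 4003 CPM in O2-IC100 without animal 10, so the O2-PBS range lay below both others. With all animals none of the 11 was called in any comparison by edgeR or DESeq2. An unadjusted p under 0.05 was found for 0 with O2 and 5 with IC100, and for 1174 and 2784 of the 16489 tested genes.

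Astrocyte markers, in contrast, summed to 47.2 to 117 CPM in RA-PBS, 71.4 to 91.9 CPM in O2-PBS and 78.8 to 94.2 CPM in O2-IC100 without animal 10, with overlap. Of their 5 tested genes none was called with O2 by edgeR or DESeq2. Without animal 10, 3 had an unadjusted p under 0.05 with O2, as did 3648 of 16688 tested genes. Aldh1l1 fell with IC100 without animal 10 (−0.70 ± 0.15, adjusted p = 0.064), where 0.731% of tested genes fell. No defining marker of either glial list was at 0 in any group. Gjb6 of the astrocyte list came close, at no more than 0.0603 CPM in O2-PBS and 0.0532 CPM in O2-IC100 without animal 10. Both values are under the floor of 3 counts.

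Several of the 9 genes are also made by other cells, and markers of those cells moved in the same comparisons. Pericyte markers summed to 166 to 198 CPM in RA-PBS, 350 to 506 CPM in O2-PBS and 303 to 367 CPM in O2-IC100 without animal 10, and 7 of 8 rose with O2 and 3 fell with IC100 without animal 10. Endothelial markers summed to 232 to 331, 438 to 490 and 321 to 358 CPM, and 7 of 10 rose and 1 fell with O2, while 2 fell with IC100. Microglial markers summed to 58.6 to 110, 109 to 137 and 128 to 157 CPM, and 5 of 12 rose with O2, and with IC100 none was called by edgeR or DESeq2 (2 had an unadjusted p under 0.05). These calls are without animal 10, where 4.09% of all tested genes rose and 2.18% fell with O2, and 0.731% fell with IC100. With all animals, edgeR called 1 pericyte, 1 endothelial and 0 microglial markers higher with O2, where 0.782% of tested genes rose. It then called no marker of the 3 lists lower with O2 or with IC100. DESeq2 with all animals called 3, 5 and 0 higher with O2, where it called 2.27% of tested genes higher. It also called 1 endothelial marker lower with O2 and 1 pericyte marker lower with IC100. No marker of these 3 lists was at 0 in any group. Vim, Nes, Msn and Cd44 are known in vessels, pericytes or microglia, and the part of these cells in their levels was not tested. In animal 10, where Vim, Cd44, Msn and Sox9 were at their highest in the group, endothelial markers summed to 49.2 CPM, pericyte markers to 658 CPM, microglial markers to 523 CPM and pigment epithelium markers to 9224 CPM.

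**Figure D5:**
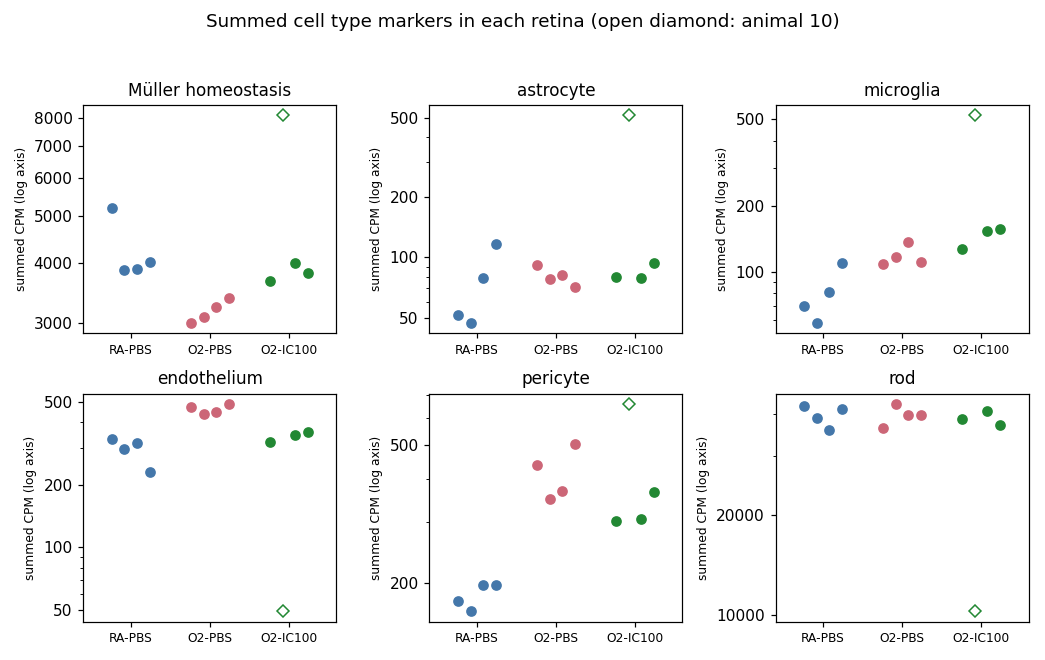
Summed normalized CPM (log axis) of 6 lists of cell type markers in each retina, by group, with the animals of a group from left to right in order of their number; the open diamond is animal 10. The O2-PBS points lie below RA-PBS for the Müller homeostasis genes and above it for the endothelial and pericyte markers, and animal 10 is the lowest for rod and endothelial markers.

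The genes whose pattern was most like that of Gfap were ranked over the 11 animals without animal 10, by the root mean square difference of their centred log2 CPM, among 15041 genes. The nearest 5 were Arpc1b (0.60), Pgf (0.72), Mt2 (0.74), Serping1 (0.77) and Xlr3b (0.80), against a median of 1.35 over all ranked genes. Arpc1b, a subunit of the actin-nucleating Arp2/3 complex, averaged 12.6 ± 13.7 CPM in RA-PBS, 22.0 ± 2.39 CPM in O2-PBS (SD, n = 4) and 13.7 ± 0.264 CPM in O2-IC100 (n = 3). Mt2 encodes a metallothionein and averaged 21.9 ± 15.8, 35.2 ± 20.5 and 21.0 ± 3.24 CPM. Pgf, placental growth factor, averaged 1.18 ± 0.828, 4.51 ± 2.11 and 1.71 ± 0.186 CPM, and Serping1, the C1 inhibitor, 6.13 ± 3.59, 14.5 ± 2.52 and 8.93 ± 0.966 CPM. Xlr3b averaged 2.825 ± 1.829, 5.74 ± 1.02 and 5.60 ± 4.17 CPM, so its O2-IC100 mean stayed near that of O2-PBS. Of the other 8 genes, the nearest to Gfap by this difference was Lcn2, at rank 60, and the farthest was Serpina3n, at rank 2205. The difference is not scaled to the range of each gene, so a wider range also adds to it. Relative to the RA-PBS mean, Serpina3n ran from −3.32 (animal 1) to 3.43 (animal 4) in RA-PBS, and Gfap from −1.94 (animal 2) to 2.84 (animal 4). The rank of Serpina3n therefore does not show that its order of animals was unlike that of Gfap.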

How the data were processed

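RNA of whole retinas was sequenced in 12 mice. Per the study's methods and labels, the authors pseudoaligned 150 bp paired-end reads to GRCm39_104 with kallisto and summed them per gene with tximport, so the deposited values are expected counts, not scaled to depth. They were rounded and fitted in R 4.3.3 with edgeR 4.0.16 (TMM, filterByExpr, robust quasi-likelihood F test, two-sided, Benjamini-Hochberg over all tested genes). A gene was called at a fold change of at least 1.5, p under 0.05 and adjusted p under 0.1. The 3 groups shared 1 fit. DESeq2 1.42.0, limma 3.58.1 with voom, other scalings and filters, covariates and left-out animals were alternatives. Tools were tested on simulated data. Symbols matched 35374 of 36131 genes. Exon lengths are from GENCODE and promoters from RefSeq, both GRCm38. The 9 genes and all lists were chosen with earlier results of these data known. Named from each list were called genes (at most 4, by adjusted p) and the 3 most abundant. P-values measure the spread between these animals.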

Additional observations from a re-analysis of the deposited data

Results flagged for a closer look

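In 27 tests, 1 per gene and group of 4, 7 found a sample far from the others, by the gap to its nearest neighbour over the group's whole range. Chance flags about 1 in 20 such groups. In RA-PBS, animal 4 stood apart for Gfap, at 288 CPM against 10.4 to 40.9 CPM (ratio 0.890). In O2-PBS, animal 5 stood apart for Cd44, at 37.9 CPM against 13.2 to 15.9 CPM (ratio 0.889). The other 5 were animal 10 in O2-IC100. Its Vim level was 2949 CPM against 174 to 205 CPM (ratio 0.989), and its Cd44 level 122 CPM against 9.56 to 10.9 CPM (ratio 0.988). Its Sox9 level was 59.1 CPM against 17.5 to 18.7 CPM (ratio 0.972), its Serpina3n level 197 CPM against 6.60 to 15.9 CPM (ratio 0.951) and its Msn level 94.9 CPM against 34.5 to 43.5 CPM (ratio 0.850). Crystallin genes took 56.1% of the counts of animal 10.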

How the results depend on the processing

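Animal 10 and the number of animals set most of the limits. The count of the 9 genes higher in O2-PBS than in RA-PBS, 2 with all animals, was 1 at an adjusted p under 0.05, 5 with only those 2 groups fitted, 6 with a crystallin term, 5 without animals 1 and 10, 4 without animal 10 and with a Y-linked term, and 7 in DESeq2 without animal 10. The count lower with IC100, 0 in edgeR with all animals, was 2 in DESeq2, 2 with a Y-linked term, 4 without animals 1 and 10, 1 without animal 10 and with a Y-linked term, and 6 in DESeq2 without animal 10. The count higher in O2-IC100 than in RA-PBS, 0 in edgeR with all animals, was 5 with a crystallin term, 1 in DESeq2 without animal 10 and 1 in the 7 retinas with high Y-linked levels. For the fits whose share of all tested genes is not given above, such as those with a crystallin term or only 2 groups, that share was not counted. The counts of the 9 in those fits therefore cannot be set against other genes. Animals 1 and 10 were left out together in a fit planned on a mistaken description of animal 1 as crystallin-rich; they are the libraries with the fewest detected genes (17615 and 18318, against at least 19811 elsewhere).

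Leaving out each animal in turn, from all 12 and, chosen after seeing the data, from the 11 without animal 10, gave 1 to 8 genes higher with O2, 0 to 4 lower with IC100 and 0 to 2 higher in O2-IC100 than in RA-PBS. Where this left an arm with 2 animals, they were assumed to vary like the rest. Log2 fold changes with IC100 that changed sign over these fits ran from −0.85 to 1.72 for Vim, −1.81 to 1.22 for Serpina3n, −1.09 to 1.42 for Cd44 and −0.68 to 0.26 for Sox9. Those of O2-IC100 against RA-PBS ran from −0.94 to 1.68 for Gfap, −0.36 to 2.33 for Vim, −0.044 to 0.51 for Lcn2, −0.0023 to 2.31 for Cd44 and −0.63 to 0.52 for Prss56.

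Other signs that changed were as follows. In the O2 comparison, Vim was at −0.11 with a Y-linked term. In the IC100 comparison, a crystallin term gave −0.48 for Vim, −1.65 for Serpina3n, −0.76 for Cd44 and −0.43 for Sox9, limma voom −0.72 for Serpina3n, −0.21 for Cd44 and −0.27 for Sox9, and upper quartile scaling −0.067 for Sox9. There, without animal 10, DESeq2 gave −0.82 for Vim, −1.50 for Serpina3n, −0.95 for Cd44 and −0.60 for Sox9. Without animals 1 and 10 the same genes were at −0.80, −1.48, −0.93 and −0.58. In the 7 retinas with high Y-linked levels, a fit chosen after seeing the data, Vim was at −0.74, Serpina3n −0.62, Lcn2 0.11, Cd44 −0.37 and Sox9 −0.50. Without animal 10 and with a Y-linked term, Gfap was at 0.23, Vim −0.66, Lcn2 0.063, Cd44 −0.75 and Sox9 −0.61. In O2-IC100 against RA-PBS, Gfap was at 0.81 in limma voom, 0.084 with a crystallin term, 0.55 with a Y-linked term, 0.94 with it and without animal 10 and 1.33 in the 7 retinas, where Vim was at −0.16 and Prss56 at 0.32. There, without animal 10, Vim was at −0.12 with a Y-linked term and −0.20 in DESeq2, and Prss56 at 0.42 and 0.24. Without animals 1 and 10, Vim was at −0.20, Cd44 at −0.0023 and Prss56 at 0.16. The cause was not tested. Of 1053 log2 fold changes under alternatives, 819 kept their direction and side of the thresholds.

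No paired analysis was possible because the animal numbers are all different and no number is shared between groups. Counting depth limits Lcn2 and the low RA-PBS values of Serpina3n.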
